A study of Homo sapiens with 8 samples.

Results

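The 37 genes described here encode the aminoacyl-tRNA synthetases and a few proteins that work with them. They were chosen by annotation: every protein-coding gene that either expression table assigned to the biological process "tRNA aminoacylation for protein translation" was a member, which gave 37 of the 34164 genes listed in either table. The gene set itself was proposed with earlier fold changes of these libraries known, so all counts of its members are descriptions and carry no test. The 37 members comprised 17 cytosolic synthetase genes (AARS, CARS, DARS, EPRS, FARSA, FARSB, HARS, IARS, LARS, MARS, NARS, RARS, SARS, TARS, VARS, WARS and YARS), 10 mitochondrial ones whose symbols end in 2 (among them FARS2, HARS2, IARS2, LARS2, MARS2, RARS2, SARS2, WARS2 and YARS2) and 3 that serve both compartments or lack a mitochondrial partner (GARS, KARS and QARS). The other 7 members were no synthetases, namely AIMP1, AIMP2, EEF1E1, MRPL39, PPA1, PPA2 and AC011455.2. The term stood beside 23 members in both tables, beside 4 only in the inhibitor table and beside 10 only in the knockdown table, and it missed 8 synthetase genes (AARS2, CARS2, EARS2, NARS2, PARS2, TARS2, TARSL2 and VARS2) that are given separately.

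RNA-seq was performed on Kyse510 cells, an established line of esophageal squamous cell carcinoma (ESCC), with 1 library per condition and 8 libraries in all. In the pharmacological arm, parental cells received vehicle (DMSO), 7 µM SP2509 (an inhibitor of the histone demethylase LSD1, encoded by KDM1A), 7 µM UNC0642 (an inhibitor of the histone methyltransferase G9a, encoded by EHMT2) or SP2509 together with UNC0642, for 2 days. The dose of each compound within the combination was not stated separately. In the genetic arm, Kyse510 cells carried a doxycycline-inducible lentiviral shRNA (Tet-pLKO-puro) against LSD1 or G9a, were kept in puromycin for 14 days, and were then sequenced without doxycycline (uninduced) or after 2 days with it. Each line carried 1 hairpin, and no doxycycline-treated line without a hairpin was analysed here, so the effects of the hairpin and of doxycycline cannot be told apart.

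An aminoacyl-tRNA synthetase joins 1 amino acid to its matching tRNAs, which the ribosome then uses as substrates. Human cells keep separate cytosolic and mitochondrial sets of these enzymes, both encoded in the nucleus, and a few genes supply both compartments. In the cytosol a group of synthetases sits in a multisynthetase complex held together by the scaffold proteins AIMP1, AIMP2 and EEF1E1, and many cytosolic synthetase genes are known targets of ATF4, the transcription factor of the amino acid and integrated stress responses.

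Library totals recovered from the steps of the FPKM values (reads scaled by gene length and library total) ranged from 15662035 to 17889466 reads, and every member that passed 1 FPKM had at least 96 reads in its control library. KDM1A was 25.98 FPKM in the uninduced shLSD1 library and 6.29 FPKM with doxycycline, a ratio of 0.242 (95% exact counting interval 0.221 to 0.265), and EHMT2 was 7.85 and 4.76 FPKM in the shG9a line, a ratio of 0.607 (0.547 to 0.673). Of the 6 squamous markers, KRT5 was 74.6 to 734 FPKM, TP63 18.3 to 127 FPKM and DSG3 5.57 to 28.6 FPKM across the libraries. Of these 6 markers, 4 were called up and 1 down with SP2509, 2 up and 3 down with UNC0642, and 2 up and 4 down with the combination. In the shLSD1 line 1 of 5 past the filter was called up and 1 down, and in the shG9a line 4 of 6 up and 1 down. KRT14 and KRT6A were low with vehicle, at 1.93 and 0.676 FPKM, and were called up in all 3 inhibitor comparisons (8.31 and 20.03 FPKM with UNC0642), where SOX2 was called down. By contrast, the summed level of the leukocyte markers PTPRC, CD3E and CD68 was at most 0.117 FPKM. Fibroblast COL1A1 was 2.92 to 5.36 FPKM. Of the endothelial markers, PECAM1 was at most 0.569 FPKM, while CDH5 was 3.28 FPKM with vehicle and 11.8 FPKM with the combination, and 5.21 and 14.0 FPKM before and after induction of the shLSD1 hairpin. SOX2 was 18.3 FPKM with vehicle, 0.313 FPKM with SP2509, 4.94 FPKM with UNC0642 and 0.636 FPKM with the combination, and it was called up in both knockdown lines, at 5.24 and 20.1 FPKM in the shLSD1 line and 5.99 and 38.8 FPKM in the shG9a line. The part of these shifts in the synthetases' levels was not tested. The uninduced libraries of the genetic arm were the nearest pair to a repeat: 0 of 35 members differed by 1.3-fold or more between them, against 7.55% of the 12449 genes compared, and the widest member difference was 0.25 on the log2 scale for MRPL39.

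A member was called up or down where FPKM + 1 differed by at least 1.3-fold from its own control and either library of the comparison reached 1 FPKM. A condition was represented by 1 library, which leaves no measure of the variation between cultures, so no p-value is given, and the intervals printed beside FPKM ratios cover the counting of reads only. The inhibitor libraries shared 1 vehicle control, so their comparisons are not independent of each other. The tables used different gene models for some members, and values were compared only within a table. In these bulk libraries fewer cells of one kind and less RNA per cell cannot be told apart.

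The cytosolic synthetases were the more abundant class. In the vehicle library their FPKM values ran from 6.56 for CARS (cysteine) to 173 for AARS (alanine) with a median of 44.9, while the 10 mitochondrial enzymes ran from 0.336 for SARS2 to 92.8 for IARS2 (isoleucine) with a median of 9.68. FPKM is scaled by gene length, so these levels can be set side by side. The uninduced shLSD1 library gave medians of 33.7 FPKM for the cytosolic and 2.97 FPKM for the mitochondrial class. SARS2 (serine) stayed under 1 FPKM in all 8 libraries, between 0.112 and 0.643 FPKM. AC011455.2, a gene model that overlaps SARS2 on the same strand of chromosome 19 and was listed only in the inhibitor table, was between 0 and 0.0571 FPKM. Reads in the overlap may have been split between these 2 gene models, and both stayed below the filter, which left 35 members in each comparison.

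**Figure D1:**
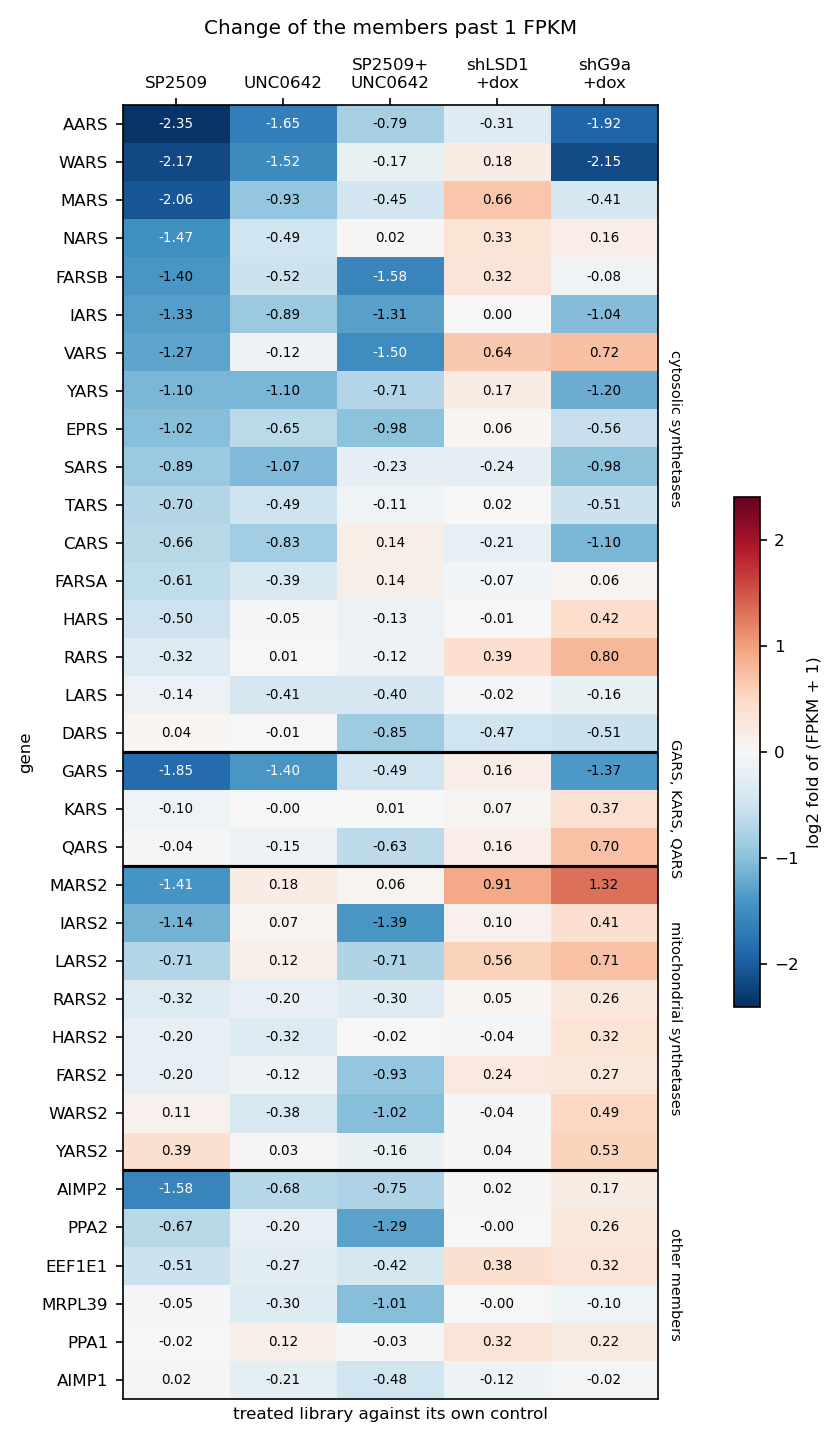
Log2 fold of (FPKM + 1) for the members named here that passed the filter (rows, grouped by class and ordered by their value with SP2509) in the 5 comparisons (columns), each treated library against its own control. Blue cells are lower and red cells higher than the control, and AARS, WARS and GARS are dark blue with SP2509, with UNC0642 and in the shG9a line.

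SP2509 was accompanied by lower transcript levels of most cytosolic synthetases. Of the 35 members past the filter, 22 were called down and 1 up, where 39.9% and 21.0% of all 13342 genes were called down and up. The cytosolic class held 14 of the 22 and no member called up, and its median log2 fold was -1.02, against -0.32 for the 9 mitochondrial enzymes and -0.21 for all genes. The widest changes were those of AARS, WARS, MARS and GARS.

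AARS (ENSG00000090861), the alanyl-tRNA synthetase gene at chr16:70252295-70289543 (GRCh38, minus strand), was 173 FPKM with vehicle and 33.2 FPKM with SP2509, a ratio of 0.192 (0.184 to 0.200) and a log2 fold of -2.35. WARS (tryptophan; chr14:100333788-100376805, minus strand) was 47.5 and 9.78 FPKM, a ratio of 0.206 (0.193 to 0.220). MARS (methionine; chr12:57475445-57517569, plus strand) was 44.9 and 10.0 FPKM, a ratio of 0.223 (0.209 to 0.237). These 3 genes lay at similar fractions of their vehicle level. GARS, which supplies glycyl-tRNA synthetase to the cytosol and the mitochondria (chr7:30594681-30634033, plus strand), was 114.5 and 31.0 FPKM, a ratio of 0.271 (0.258 to 0.284).

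The cytosolic enzymes not called with SP2509 were DARS, LARS and RARS, with log2 folds of 0.04, -0.14 and -0.32. All 3 belong to the multisynthetase complex, of whose 8 enzymes EPRS, IARS and MARS were called down, whereas all 11 cytosolic synthetases outside the complex were called down. KARS and QARS, also enzymes of the complex, were at -0.10 and -0.04. The scaffold protein AIMP2 was at 18.8 FPKM with vehicle and 5.62 FPKM with SP2509 (log2 fold -1.58), EEF1E1 was called down at -0.51, and AIMP1 was at 0.02. The contrast between enzymes inside and outside the complex differed between comparisons. With UNC0642, 4 of the 8 and 9 of the 11 were called down. With the combination the order was turned, with 6 of the 8 (median -0.54) and 4 of the 11 (-0.17) called down. The shG9a line had 4 of the 8 and 6 of the 11 called down, and 2 called up in each group. Of all genes, 39.9%, 16.9% and 31.7% were called down with SP2509, UNC0642 and the combination. In the shG9a line 17.6% were called down and 32.9% up. The 3 of 8 with SP2509 and the 4 of 11 with the combination were thus near the shares of all genes.

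Among the mitochondrial enzymes called down with SP2509 were MARS2, IARS2 and LARS2, with log2 folds of -1.41, -1.14 and -0.71. MARS2 (methionine) was 7.00 FPKM with vehicle and 2.01 FPKM with SP2509, a ratio of 0.287 (0.229 to 0.358). YARS2 (tyrosine) was the only member called up, at 12.6 and 16.8 FPKM, a ratio of 1.33 (1.18 to 1.51). Its log2 fold of 0.39 lay just inside the threshold of 0.38.

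UNC0642 showed a similar list of lower cytosolic enzymes with smaller differences, and the mitochondrial class stayed near its vehicle level. A total of 16 of the 35 members were called down and 0 up, against 16.9% and 18.2% of 13244 genes. Of the 16, 13 were cytosolic synthetases, and the class median was -0.52, compared with -0.02 for the mitochondrial enzymes and -0.01 for all genes. The 2 inhibitor comparisons shared 12 cytosolic synthetases called down (AARS, CARS, EPRS, FARSA, FARSB, IARS, MARS, NARS, SARS, TARS, WARS and YARS), which was 12 of 14 with SP2509 and 12 of 13 with UNC0642. LARS (leucine) was called down with UNC0642 but not with SP2509. Overlap was also common over all genes: 1590 were called down in both comparisons, of 5318 with SP2509 and 2242 with UNC0642. Both comparisons used the same vehicle library.

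AARS was 54.3 FPKM with UNC0642, a ratio to vehicle of 0.315 (0.304 to 0.326). WARS was 15.9 FPKM, a ratio of 0.334 (0.316 to 0.353), and GARS was 42.7 FPKM, a ratio of 0.373 (0.358 to 0.389). YARS (tyrosine; chr1:32775237-32818153, minus strand) was 34.8 FPKM with vehicle, 15.8 FPKM with SP2509 and 15.7 FPKM with UNC0642, so that both inhibitors left it at the same level, with ratios of 0.452 and 0.450. WARS2 was the only mitochondrial enzyme called down with UNC0642, at 4.15 and 2.95 FPKM, and its log2 fold of -0.38 lay just inside the threshold. MARS2 and IARS2, which were lower with SP2509, were 8.05 and 97.7 FPKM with UNC0642, above their vehicle levels by 0.18 and 0.07 on the log2 scale.

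**Figure D2:**
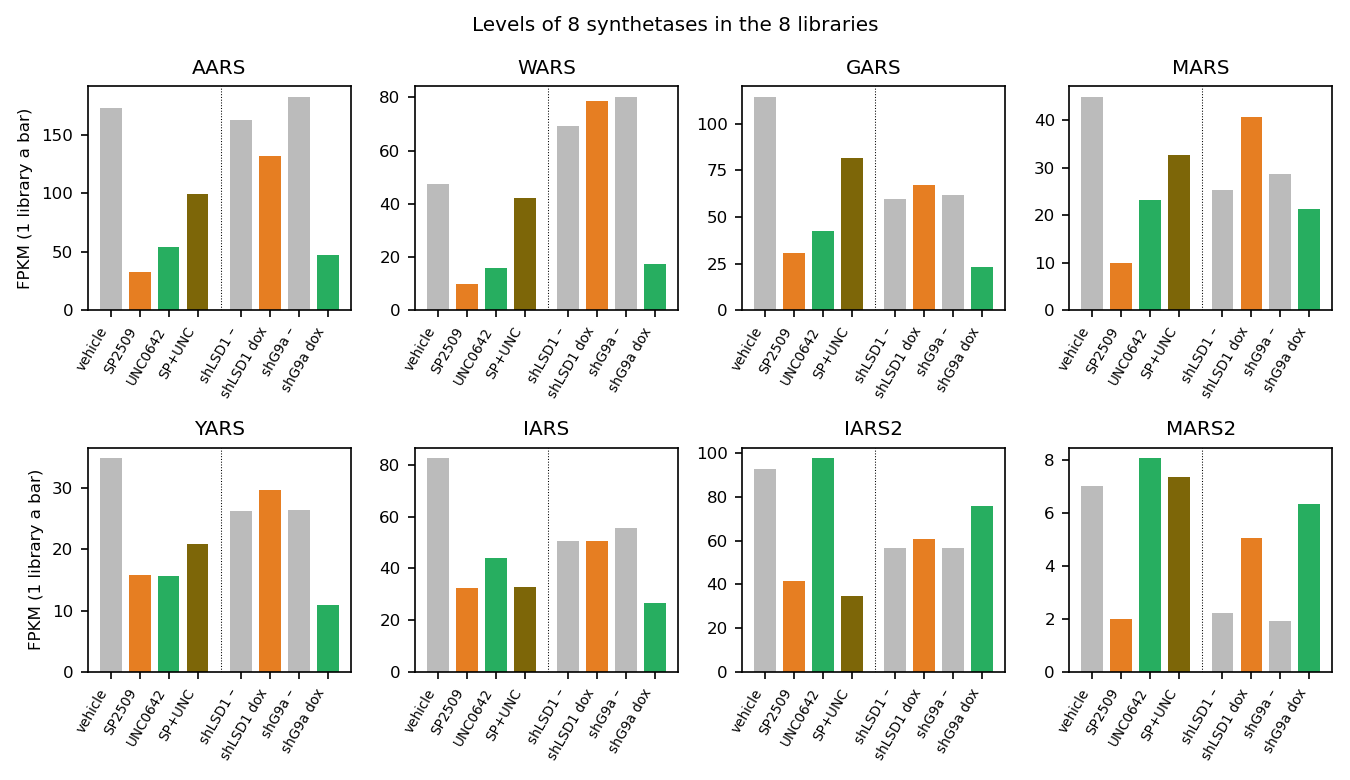
FPKM (vertical axes, starting at 0) of 8 synthetases, 1 panel each, with 1 bar per library: vehicle, SP2509, UNC0642 and the combination left of the dotted line, and the uninduced (–) and doxycycline-treated shLSD1 and shG9a lines right of it. AARS, WARS, GARS and YARS are lower with either single inhibitor and in the doxycycline-treated shG9a library, and the tables left and right of the dotted line were normalized separately.

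The combination gave another picture. A total of 21 of 35 members were called down and 0 up, against 31.7% and 31.4% of 13907 genes, and here the mitochondrial median (-0.71) was below the cytosolic one (-0.40). Among the cytosolic enzymes 9 of 17 were called down and among the mitochondrial ones 5 of 9. The 4 widest changes were FARSB at -1.58, VARS at -1.50, IARS2 at -1.39 and IARS at -1.31.

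FARSB, the beta subunit of phenylalanyl-tRNA synthetase, was 43.1 FPKM with vehicle, 15.7 FPKM with SP2509, 29.7 FPKM with UNC0642 and 13.7 FPKM with both, the last a ratio of 0.318 (0.293 to 0.346). VARS (valine) was 23.8, 9.31, 21.8 and 7.80 FPKM in the same order. IARS was 82.6, 32.3, 44.1 and 32.7 FPKM, and IARS2 was 92.8, 41.5, 97.7 and 34.8 FPKM. For these 4 genes the combination lay within 0.25 log2 units of SP2509 alone. FARSA, the alpha subunit that pairs with FARSB, was 34.2 FPKM with vehicle, 22.1 FPKM with SP2509, 25.8 FPKM with UNC0642 and 37.6 FPKM with both, so only the beta subunit was called down in the combination.

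Several enzymes that were low with each inhibitor alone were higher when the inhibitors were given together. Of the 14 members called down with both single inhibitors, 10 were at least 1.3-fold higher in the combination than with either inhibitor alone, namely AARS, CARS, FARSA, GARS, MARS, NARS, SARS, TARS, WARS and YARS. Over all 1590 genes called down with both single inhibitors, this held for 19.3%. WARS stood at 42.1 FPKM in the combination, which was 4.30 times (4.03 to 4.60) the SP2509 one and 2.65 times (2.51 to 2.80) the UNC0642 one. AARS stood at 99.1 FPKM in the combination, between vehicle and the single inhibitors, as did GARS at 81.4 FPKM, MARS at 32.6 FPKM and YARS at 20.9 FPKM. NARS (asparagine), at 51.9 FPKM, lay within counting error of its vehicle level of 51.0 FPKM, with a ratio of 1.02 (0.970 to 1.07). EPRS, FARSB, IARS and AIMP2 were the 4 that were not above both single inhibitors.

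**Figure D3:**
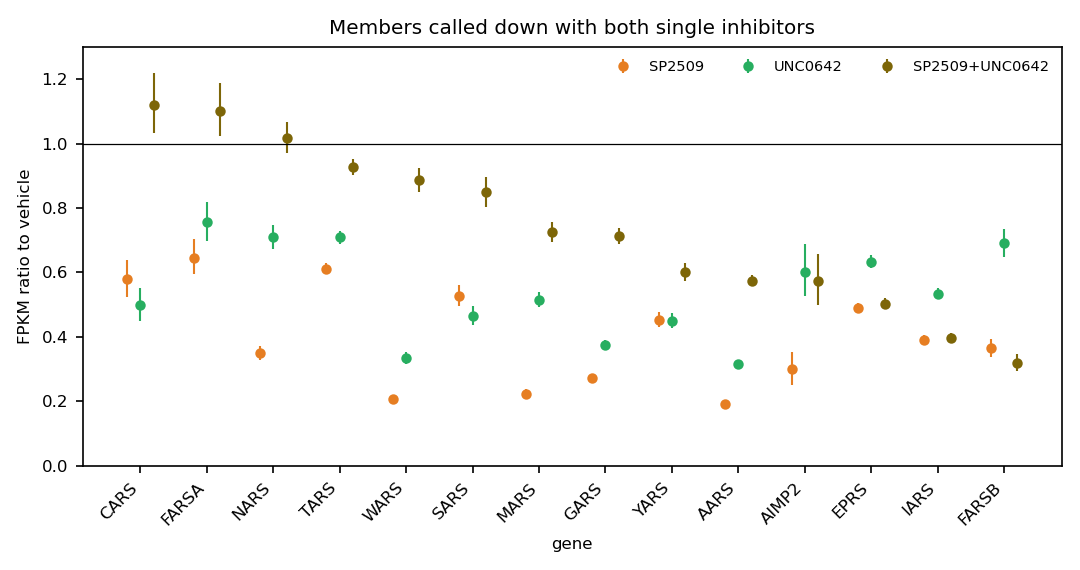
FPKM ratio to vehicle (vertical axis, 1 = vehicle) for the 14 members called down with both single inhibitors, with points for SP2509, UNC0642 and the combination and bars for 95% exact counting intervals. From CARS to AARS the combination lies above both single inhibitors, with ratios from 1.12 down to 0.574, and the remaining 4 genes are at 0.573 or below.

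Most synthetases stayed near their uninduced level in the shLSD1 line with doxycycline. Of 35 members, 5 were called up and 1 down, against 24.8% and 12.3% of 12970 genes. The cytosolic and mitochondrial medians were 0.02 and 0.10, below the median of all genes (0.13), and both medians fell below 0 when the libraries were scaled to another reference (-0.09 and -0.01 after centring on the median gene, -0.13 and -0.05 with equal upper quartiles). Members called up were MARS2, MARS, VARS, LARS2 and RARS, and DARS (aspartate) was the member called down. RARS, at 0.39, lost its call after centring (0.28) and with equal upper quartiles (0.24).

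MARS2 was 2.20 FPKM uninduced and 5.03 FPKM with doxycycline, a ratio of 2.29 (1.83 to 2.86). MARS was 25.3 and 40.8 FPKM, a ratio of 1.61 (1.54 to 1.68), VARS was 10.7 and 17.3 FPKM, also a ratio of 1.61 (1.496 to 1.735), and LARS2 was 2.68 and 4.43 FPKM, a ratio of 1.65 (1.44 to 1.90). These 4 genes were also called down with SP2509, as were 39.9% of all genes. No member was called down both with SP2509 and after LSD1 silencing, but DARS was the only member called down in that line. MARS was the only member called in opposite directions in the knockdown lines. AARS and WARS, the members with the widest difference under SP2509, were 163 and 132 FPKM and 69.1 and 78.7 FPKM before and after induction of the shLSD1 hairpin, neither of them called. GARS and YARS were not called either, at 59.9 and 67.2 FPKM and at 26.2 and 29.7 FPKM. AARS, at a log2 fold of -0.31, passed the threshold after centring (-0.42), with equal upper quartiles (-0.46) and against the mean of the uninduced libraries (-0.39). AARS was then called down both with SP2509 and in the shLSD1 line, as was SARS with equal upper quartiles (-0.39).

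The cytosolic and mitochondrial enzymes moved apart in the shG9a line with doxycycline. A total of 11 members were called down and 10 up, against 17.6% and 32.9% of 13080 genes. Of 17 cytosolic synthetases 10 were called down and 3 up, and of 9 mitochondrial ones 0 were called down and 6 up. The cytosolic median log2 fold was -0.51 and the mitochondrial one 0.49, a difference of -0.998, with all genes at 0.18. All 9 mitochondrial enzymes were higher than uninduced, between 0.26 and 1.32. Centring lowered every fold in this comparison by 0.14, which left 7 members called up, 4 of them mitochondrial, and 11 called down.

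WARS was 80.2 FPKM in the uninduced shG9a library and 17.3 FPKM with doxycycline, a ratio of 0.216 (0.205 to 0.227). AARS was 183 and 47.5 FPKM, a ratio of 0.260 (0.251 to 0.270), and GARS was 61.6 and 23.2 FPKM, a ratio of 0.377 (0.356 to 0.399). The first 2 genes were also the ones with the widest change under each single inhibitor. MARS2 was 1.92 and 6.31 FPKM, a ratio of 3.28 (2.61 to 4.17), the widest increase of any member in any comparison. The cytosolic enzymes called up were RARS (arginine) at 37.6 and 66.0 FPKM, VARS at 12.2 and 20.8 FPKM and HARS (histidine) at 6.63 and 9.21 FPKM, and QARS (glutamine) was also called up at 39.2 and 64.2 FPKM. HARS, at a log2 fold of 0.42, lost its call after centring (0.28) and with equal upper quartiles (0.34). HARS overlaps HARS2 on the opposite strand, and without strand information reads in that overlap cannot be told apart.

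Of the 11 members called down after G9a silencing, 10 were also called down with both single inhibitors, namely AARS, CARS, EPRS, GARS, IARS, MARS, SARS, TARS, WARS and YARS. The same 10 were the members called down both with UNC0642 and in the shG9a line, which have no library in common. These were 10 of the 16 members called down with UNC0642 and 10 of the 11 in the shG9a line. Over all genes, 16.9% with UNC0642 and 17.6% in the shG9a line were called down, and the overlap of those genes was not counted. It is therefore not known whether the overlap among the members is larger than that among all genes. The remaining one of the 11 was DARS, at 37.3 FPKM uninduced and 25.9 FPKM with doxycycline, which was called down in both knockdown lines and in the combination. By contrast, HARS, IARS2, LARS2, MARS2 and VARS were called down with SP2509 and up after G9a silencing. Over all genes, 39.9% were called down with SP2509 and 32.9% up in the shG9a line, and their overlap was not counted either. WARS2 was the only member called down with UNC0642 and up in the shG9a line.

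**Figure D4:**
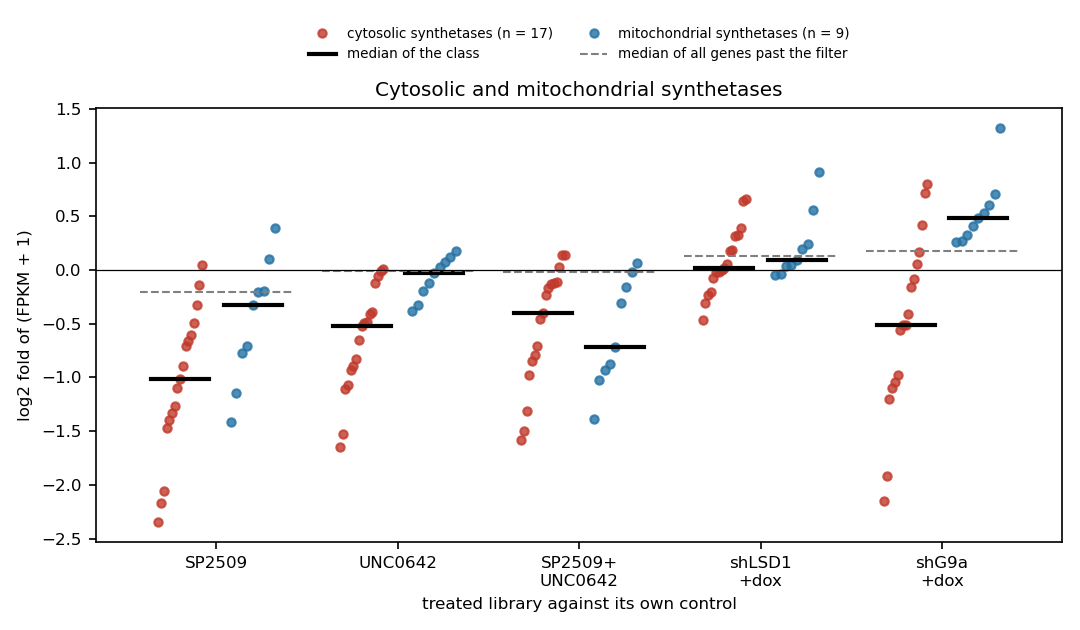
Log2 fold of (FPKM + 1) of the 17 cytosolic (red) and 9 mitochondrial (blue) synthetases past the filter in the 5 comparisons, 1 point per gene, with the median of each class (black) and of all genes past the filter (dashed). The classes are farthest apart in the shG9a line, with medians of -0.51 and 0.49, and the order of the medians is turned in the combination.

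The cytosolic minus mitochondrial difference of medians was -0.69 for SP2509, -0.50 for UNC0642, 0.32 for the combination, -0.08 in the shLSD1 line and -0.998 in the shG9a line. When the symbol ending alone divided all members, the non-synthetases included, the differences with SP2509 and in the shG9a line became -0.04 and -0.57. With a minimum of 5 FPKM the difference in the combination was 0.11. Adding the 8 synthetases that the term missed, 7 of them mitochondrial, gave -0.47, -0.42, 0.34, -0.15 and -0.93. Those 8 genes followed the mitochondrial members in direction: 7 were called down with SP2509, 0 with UNC0642 and 4 when both were given. In the shLSD1 line 3 were called up, and in the shG9a line 4. Of all genes, 39.9%, 16.9% and 31.7% were called down with the inhibitors in that order, and 24.8% and 32.9% up in the lines. Only the count with SP2509 was far from its share. PARS2 (proline) was 4.76 FPKM with vehicle and 1.53 FPKM with SP2509, and 5.49 and 10.4 FPKM before and after induction in the shG9a line. TARSL2, a cytosolic relative of TARS, was the exception in the combination, where it was called up at 4.61 and 9.16 FPKM.

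Set against each other, the enzymes for the same amino acid differed in direction most often after G9a silencing. There were 9 pairs set side by side, with both members past the filter, FARS2 being set against FARSA and against FARSB. The cytosolic partner had the lower fold in 7 of 9 pairs in the shG9a line, in 7 with either single inhibitor, in 4 in the shLSD1 line and in 4 with the combination. Opposite calls were made for 4 pairs in the shG9a line, for 1 with SP2509 and for 0 in the other comparisons. Some of the 4 depended on the processing. IARS2 lost its call after centring (0.27) and with equal upper quartiles (0.32), and WARS2 after centring (0.35). MARS lost its call against the mean of the uninduced libraries (-0.33).

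In the shG9a line, YARS was 26.4 FPKM uninduced and 10.9 FPKM with doxycycline, while YARS2 was 10.4 and 15.5 FPKM. IARS was 55.6 and 26.5 FPKM, while IARS2 was 56.7 and 75.8 FPKM, so that genes at about equal levels before induction were apart after it. WARS2 was 2.45 and 3.84 FPKM, opposite in direction to WARS. MARS was 28.6 and 21.3 FPKM, opposite in direction to MARS2. With SP2509, YARS and YARS2 formed the pair with opposite calls. RARS and RARS2 ran the other way in the shG9a line, with log2 folds of 0.80 and 0.26.

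**Figure D5:**
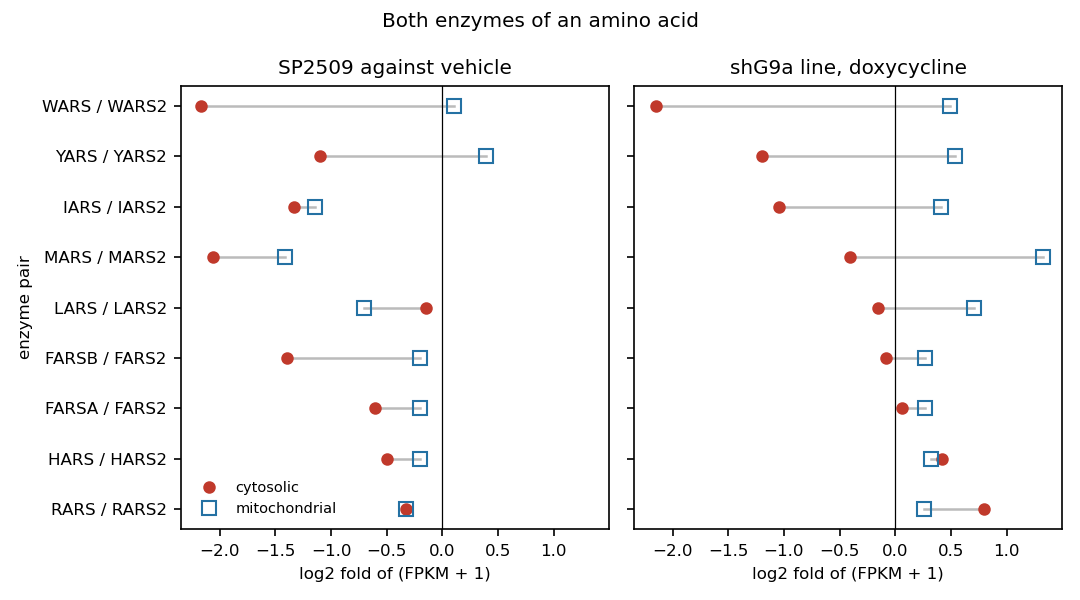
Log2 fold of (FPKM + 1) for both enzymes of an amino acid, cytosolic (filled circles) and mitochondrial (open squares) joined by a line, with SP2509 (left) and in the shG9a line with doxycycline (right). In the right panel the circles of WARS, YARS, IARS and MARS lie past the threshold below 0 and the squares of their partners above it.

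Of the 6 members past the filter that are no synthetases, 3 were called down with SP2509, 1 with UNC0642, 5 with the combination and 0 in either knockdown line, and none was called up. Of all genes, 39.9%, 16.9% and 31.7% were called down with the inhibitors in that order, and 12.3% and 17.6% in the shLSD1 and shG9a lines. Among the inhibitor comparisons, only the count with the combination was far from its share. PPA2, the mitochondrial pyrophosphatase that removes the pyrophosphate released by charging, was called down with SP2509 and the combination (19.7 FPKM with vehicle, 12.04 and 7.47 FPKM), whereas its cytosolic counterpart PPA1 was not called in any comparison and ranged from 28.2 to 31.5 FPKM in the inhibitor table. MRPL39, a protein of the mitochondrial ribosome, was called down with the combination at 22.6 and 10.7 FPKM. The scaffold proteins AIMP1, AIMP2 and EEF1E1 were all called down in the combination and none of them in either knockdown line. HARS2, KARS, RARS2 and PPA1 were past the filter and not called in any of the 5 comparisons, and KARS (lysine) ranged from 64.1 to 69.3 FPKM in the inhibitor table.

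Calls near the threshold depend on its exact place. Just inside and outside it on the lower side were HARS (-0.50) and RARS2 (-0.32) with SP2509, WARS2 (-0.38) and HARS2 (-0.32) with UNC0642, LARS (-0.40) and RARS2 (-0.30) with the combination, DARS (-0.47) and AARS (-0.31) in the shLSD1 line, and MARS (-0.41) and LARS (-0.16) in the shG9a line. On the upper side they were YARS2 (0.39) and WARS2 (0.11) with SP2509, RARS (0.39) and EEF1E1 (0.38) in the shLSD1 line, and IARS2 (0.41) and KARS (0.37) in the shG9a line. With UNC0642 and the combination no member was called up, and the highest were MARS2 (0.18) and CARS (0.14).

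Promoter sequences were examined because many cytosolic synthetase genes were called down in the same comparisons. RefSeq promoter windows (GRCh38.p14) of 300 bases, from 250 before to 50 after the start of the gene, were matched by gene name to 30 members, and the windows were searched on both strands for TGATGNAA, the letters of the composite C/EBP-ATF element that ATF4 is known to bind. No window was matched for AC011455.2, DARS, LARS, PPA1, VARS, YARS or AARS2, among others. The letters were present in 6 of 13 cytosolic synthetases (AARS, CARS, IARS, MARS, NARS and TARS), in 1 of 9 mitochondrial ones (YARS2), in 0 of GARS, KARS and QARS and in 0 of 5 other members, against 3.62% of all 35116 windows. Shown are the 3 members with the widest summed change among those that hold the letters and, for comparison, IARS2, the mitochondrial partner of IARS, which does not hold them. Sequences read 5′ to 3′ along the gene, and capitals mark the match, which in all 3 lies on the opposite strand (TTNCATCA as read here).
AARS (chr16:70289457-70289756, minus strand): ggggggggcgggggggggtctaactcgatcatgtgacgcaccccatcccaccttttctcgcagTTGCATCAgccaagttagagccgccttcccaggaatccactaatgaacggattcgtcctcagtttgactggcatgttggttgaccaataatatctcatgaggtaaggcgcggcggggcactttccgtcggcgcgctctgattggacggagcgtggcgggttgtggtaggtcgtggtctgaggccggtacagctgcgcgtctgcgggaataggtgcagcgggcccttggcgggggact
IARS (chr9:92293648-92293947, minus strand): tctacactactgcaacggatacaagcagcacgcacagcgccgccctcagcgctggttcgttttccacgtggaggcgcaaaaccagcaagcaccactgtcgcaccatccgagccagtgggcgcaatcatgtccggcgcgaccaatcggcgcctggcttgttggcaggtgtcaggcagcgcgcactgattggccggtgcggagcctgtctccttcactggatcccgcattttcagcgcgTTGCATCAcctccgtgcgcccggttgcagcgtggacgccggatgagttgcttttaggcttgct
MARS (chr12:57487818-57488117, plus strand): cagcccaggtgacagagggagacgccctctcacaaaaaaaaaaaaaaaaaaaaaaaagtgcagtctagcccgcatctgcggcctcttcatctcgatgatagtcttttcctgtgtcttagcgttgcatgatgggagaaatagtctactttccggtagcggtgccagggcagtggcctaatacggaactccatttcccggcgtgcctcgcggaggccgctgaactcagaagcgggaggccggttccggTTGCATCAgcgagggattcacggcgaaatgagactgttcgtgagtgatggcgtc
IARS2 (chr1:220093882-220094181, plus strand): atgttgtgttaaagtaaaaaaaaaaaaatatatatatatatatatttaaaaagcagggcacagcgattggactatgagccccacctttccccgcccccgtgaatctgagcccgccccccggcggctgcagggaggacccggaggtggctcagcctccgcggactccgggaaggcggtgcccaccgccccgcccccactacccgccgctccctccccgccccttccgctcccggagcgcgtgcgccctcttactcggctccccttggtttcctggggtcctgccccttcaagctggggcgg
The match began 187 bases before the start in AARS, 13 bases before it in IARS and 4 bases before it in MARS, whose RefSeq start lies within the longer gene model of the expression tables. The 7 synthetases with the letters had a median log2 fold of -1.33 with SP2509, of -0.83 with UNC0642, -0.16 when both were given, 0.02 in the shLSD1 line and -0.51 in the shG9a line. The 17 synthetases past the filter whose window lacked them had medians of -0.61, -0.20, -0.30, 0.10 and 0.32. These groups differ in class, since 6 of the 7 with the letters were cytosolic, against 7 of the 17 without, of which another 7 were mitochondrial. Among cytosolic synthetases alone, the medians with (n = 6) and without the letters (n = 7) were -1.40 and -0.89 for SP2509, -0.86 and -0.52 for UNC0642, -0.28 and -0.17 for the combination, 0.01 and 0.06 in the shLSD1 line, and -0.78 and -0.08 in the shG9a line. WARS, EPRS, FARSA, FARSB, GARS and SARS were called down with both single inhibitors without holding the letters in this window. A match is a description of the sequence, and binding was not measured in these libraries.

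Genes of the ATF4 response itself were summarised from a list of 14. With SP2509, 10 of 14 past the filter were called down and 1 up (median -0.87), with UNC0642 8 down and 0 up (-0.73), with the combination 7 down and 4 up (-0.29), in the shLSD1 line 3 of 13 down and 4 up (0.03), and in the shG9a line 10 of 13 down and 1 up (-1.74). The shares of all genes called down in these comparisons were 39.9%, 16.9%, 31.7%, 12.3% and 17.6%. TRIB3, a pseudokinase induced in this response, was 85.4 FPKM with vehicle, 3.75 FPKM with SP2509, 13.8 FPKM with UNC0642 and 22.0 FPKM with both, and 80.2 and 10.1 FPKM before and after induction in the shG9a line. CHAC1, which degrades glutathione, was 15.5 FPKM with vehicle, 0.737 FPKM with SP2509, 2.06 FPKM with UNC0642 and 28.4 FPKM with both. ATF4 transcripts were 255 FPKM with vehicle, 210 FPKM with SP2509, 186 FPKM with UNC0642 and 360 FPKM with both, and 292 and 164 FPKM in the shG9a line. ATF3 did not follow the rest, at 17.4 FPKM with vehicle and 162 with SP2509. Whether these genes have a part in the synthetases' levels was not tested.

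Steps on either side of charging were compared by list. Of the 17 genes of tRNA end processing and export, 9 of 14 past the filter were called down and 0 up with SP2509 (median -0.80), where 39.9% of all genes were called down. With UNC0642 it was 2 down and 1 up (-0.01), and with the combination 5 down and 4 up (-0.23). In the knockdown lines 8 of 15 were called up and 0 down after LSD1 silencing (0.47), and 9 of 16 up and 1 down after G9a silencing (0.40), against 24.8% and 32.9% of all genes called up. XPOT, which exports tRNA from the nucleus, was the one called down there, at 48.8 and 26.8 FPKM, and was also called down with SP2509 at 72.4 and 26.3 FPKM. The 4 mitochondrial elongation factors (TUFM, TSFM, GFM1 and GFM2) were all called up in the shG9a line (median 0.66), and 3 of them were called down with SP2509 (-0.60). The cytosolic elongation factors changed less: 1 of 5 past the filter was called down with SP2509 (EEF1B2, 145 and 110 FPKM) and 1 in the shG9a line (EEF2, 1114 and 820 FPKM), with medians of -0.26 and 0.11.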

How the data were processed

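The authors extracted total RNA, sequenced it as paired 150-base reads, used GRCh38 and deposited FPKM values per gene in 2 tables, 1 for the inhibitor arm and 1 for the knockdown arm. FPKM was used on the log2(FPKM + 1) scale, which understates the change of low genes. Each treated library was compared with its own control (vehicle, or the same line without doxycycline), and the tables, which differ in gene models, were not compared with each other. A call needed a fold of at least 1.3, the fold used in the study (there with a p-value, which 1 library per condition does not give here), and 1 FPKM in either library. Read totals and gene lengths were estimated from the steps of the FPKM values, a value being taken as whole within 0.02 reads, and were used for 95% exact (Clopper-Pearson) intervals of FPKM ratios. The procedure was tested on simulated data. Genes' reads summed to 99.5% to 99.7% of the estimated totals. With 1 library per condition no test between conditions was made. The members, gene lists and comparisons were chosen with earlier results of these data known. 1 member is not reported by name here, although counts and medians of its class include it. The other members are named, and fuller values are given for the 4 with the widest change in each comparison, for opposite calls and for threshold neighbours. Alternatives were another pseudocount, filter, fold threshold, scaling, control or class rule. Python 3.11.15, pandas 2.3.3 and scipy 1.17.1 were used.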

Additional observations from a re-analysis of the deposited data

Results flagged for a closer look

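MARS, the cytosolic methionyl-tRNA synthetase gene, was called in opposite directions in the knockdown lines, with a log2 fold of 0.66 with doxycycline in the shLSD1 line and of -0.41 in the shG9a line. The difference between the lines was not tested, since each value rests on 1 library with and 1 without doxycycline. Against the mean of both uninduced libraries the shG9a value was -0.33, which is not past the threshold.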

How the results depend on the processing

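No class difference and no call turned its direction under an alternative. Some log2 folds near 0 that were not called changed sign, such as DARS with UNC0642 (0.04 with equal upper quartiles) and, in the shLSD1 line, IARS and YARS2 after centring (-0.11 and -0.07) and WARS2 against the mean control (0.06), as did both class medians of that line under either scaling. With a fold threshold of 2, SP2509 kept 0 members called up and 13 down, UNC0642 5 down, the combination 7 down, the shLSD1 line 0 up and 0 down, and the shG9a line 1 up and 6 down. In the shLSD1 line 2 members were called down after centring, 3 with equal upper quartiles and 2 against the mean of the uninduced libraries. The cytosolic minus mitochondrial difference of the combination was 0.11 with no filter on low values and with a minimum of 5 FPKM. With the symbol ending applied to every member, an alternative chosen after seeing the data, it was -0.036 with SP2509 and -0.57 in the shG9a line. Adding the 8 synthetases outside the term was also chosen after seeing the data. Among called members, the share called up in the shLSD1 line was 83.3%, 66.7% after centring and 57.1% with equal upper quartiles, and over all genes it was 66.8%, 50.7% and 47.8%. For all genes in the shG9a line that share was 65.2%, 50.03% and 57.1%. Centring moved the log2 folds of the shLSD1 and shG9a comparisons by -0.11 and -0.14. WARS2 with UNC0642 (-0.35) and MARS with the combination (-0.35) lost their calls with equal upper quartiles, IARS2 in the shG9a line after either scaling (0.27 and 0.32) and WARS2 there after centring (0.35). Calls were also lost with equal upper quartiles by HARS with SP2509 (-0.37), FARSA and LARS with UNC0642 (-0.34 and -0.36) and EEF1E1 and LARS with the combination (-0.35 and -0.30), and under either scaling by RARS in the shLSD1 line and HARS in the shG9a line. Some members gained calls, namely AARS and SARS down in the shLSD1 line, and EEF1E1 up in both lines and KARS up in the shG9a line (0.38 against the mean control). A minimum of 5 FPKM removed low members such as WARS2 and EEF1E1. The causes were not tested. No paired analysis was possible because every condition was 1 library. Depth was not the main limit, as each member past the filter had at least 96 control reads. The spread between cultures is unknown.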

Other observations

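Genes that act beside the synthetases gave the following values. Of the enzymes that clear mischarged amino acids from tRNA, DTD2 was 11.1 FPKM with vehicle, 3.40 FPKM with SP2509, 5.46 FPKM with UNC0642 and 2.73 FPKM with both, and was called down in all 3. DTD2 was called up in both knockdown lines, at 4.51 and 8.82 FPKM in the shLSD1 line and at 5.01 and 8.24 FPKM in the shG9a line. DTD1 was called down with the combination, at 8.82 and 3.52 FPKM, and in the shG9a line, at 1.43 and 0.589 FPKM.

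MTFMT, which formylates mitochondrial initiator methionyl-tRNA, had the same calls as MARS2, the enzyme that charges that tRNA, in all 5 comparisons. It was 3.39 FPKM with vehicle and 1.23 FPKM with SP2509, 2.13 and 3.69 FPKM in the shLSD1 line, and 2.13 and 4.17 FPKM in the shG9a line. QRSL1, a subunit of the amidotransferase that makes mitochondrial glutaminyl-tRNA, was called down in all 3 inhibitor comparisons, at 10.01 FPKM with vehicle and 7.13, 6.77 and 4.87 FPKM with SP2509, UNC0642 and both. SEPSECS, which completes selenocysteinyl-tRNA, was 2.57 FPKM with vehicle and 1.29, 1.14 and 0.342 FPKM in the same order.

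WARS is known to be induced by interferon-gamma, and a list of 12 interferon response genes was measured beside it. With SP2509, 6 of 10 past the filter were called up and 0 down, against 21.0% of all genes called up. With UNC0642 it was 4 of 8 up and 1 down (18.2% of all genes up), and with the combination 5 of 8 up and 1 down (31.4%). In the shLSD1 line 8 of 11 were called up and 1 down (24.8%). In the shG9a line 4 of 10 were called up and 2 down, near the shares of all genes (32.9% up and 17.6% down). The filter needed 1 FPKM in either library, so genes low in the control could pass through the treated library alone. With the same vehicle, 10 passed with SP2509 but 8 with UNC0642, so some of the 10 passed only through the SP2509 library. Counts of calls up can be raised in this way, and the shares of all genes used the same filter. GBP1, an interferon-induced GTPase, was 6.18 FPKM with vehicle and 58.5 FPKM with SP2509, where WARS was at a ratio of 0.206 to vehicle. The part of this response in the level of WARS was not tested.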
